A study of Mus musculus with 6 samples.

Results

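Circular RNAs (circRNAs) are closed loops that form when the end of an exon is spliced back to an upstream exon start. They lack free ends, are abundant in brain, and most hold exons of a coding gene, called the host here. A short genomic span leaves room for fewer exons than a long one, and the exons within each span were not checked here. The array carried 37852 circRNA probes named by chromosome, start, end and strand, among 150305 probes in all. Those with a span (end minus start) under 1000 bases numbered 3484 and are described here, while 26130 spanned 1 to 30 kb and 8238 more than 30 kb.

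The RNA was from prefrontal cortex of male mice of the outbred ICR stock at 3 to 4 months of age, with 3 wild type and 3 Nrf2 knockout samples and 1 array for each. Nrf2 is the protein of the gene Nfe2l2, a transcription factor that switches on antioxidant and detoxifying enzymes. Which part of Nfe2l2 was deleted is not stated in the labels. They also do not say that each sample is a separate animal, so the p-values here cover only the spread between these samples, possibly a technical one. The 3 wild type arrays and knockout 1 were on slide 1, and knockouts 2 and 3 on slide 2, per the file headers. Fewer cells of a type and less RNA per cell cannot be told apart in such bulk tissue. Total RNA was labelled, and the labels describe no step that removes linear RNA, so a probe may also bind the linear transcript of its host.

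Signal below is the normalised log2 signal, log2 of the processed intensity minus log2 of the 75th percentile of its array. A probe at 0 is as bright as that percentile. Probes differ in how well they bind, so signals of different probes do not rank their RNAs. The labelled tissue was checked against marker genes on linear probes: the 12 neuron markers had a mean signal of 6.04 to 6.11 in wild type and 6.11 to 6.18 in the knockout, and none of the 12 had an unadjusted p under 0.05. Of the other marker lists, 3 of 8 choroid plexus and 3 of 9 striatum genes were lower in the knockout at that level, against 8.94% of all probes. Of the red blood cell genes, 4 of 5 were higher, against 6.11% of all probes. None of these genes had an adjusted p under 0.05. The marker lists were chosen with earlier results of these data known, and each gene was read by its brightest tested probe. No short circRNA had a host among the choroid plexus, striatum, or endothelial and mural markers.

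The spans started at 50 bases and had a median of 429.5, with quartiles of 220 and 683. There were 92 members under 100 bases, 1121 from there to under 300 and 2271 of 300 or more. The 3 members nearest the boundary, in Dzip3, Hmgxb3 and Rc3h1, and the 3 circRNAs just outside it, in 6530402F18Rik, Flii and Zbtb8b, had wild type means between −4.65 and −1.16. The sources used here name no build for the positions, which were read as GRCm38. With that build 94.7% of the members were inside coding genes, and after moving each by 1000000 bases 46.6% were. Of 30 members that overlap a RefSeq promoter window by at least 100 bases, 23 had a 20-base run of their probe within the overlap.

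The shortest circles show how the probes were built, because a probe of 60 bases is longer than the circle itself. Of the members, 26 had circles of 51 to 59 bases, and all 26 probes ran once around the circle and repeated their first bases at the end. The repeat length equalled 60 minus the circle length, with the circle counted as end minus start plus 1. In the following 5 probes the capitals mark the repeated ends. They lie in H1f2, a linker histone gene (chr13:23739398-23739448, plus strand), Mob3a (chr10:80685266-80685316, minus strand), Col1a1, a collagen gene (chr11:94944598-94944651, plus strand), Cdc42bpb, a kinase gene (chr12:111321522-111321572, plus strand, opposite to the gene), and outside any single gene at chr17:39845503-39845553 (plus strand).
H1f2: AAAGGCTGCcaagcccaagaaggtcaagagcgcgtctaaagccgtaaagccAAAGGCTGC
Mob3a: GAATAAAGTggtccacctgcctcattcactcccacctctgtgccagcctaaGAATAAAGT
Col1a1: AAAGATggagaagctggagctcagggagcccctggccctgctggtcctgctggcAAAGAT
Cdc42bpb: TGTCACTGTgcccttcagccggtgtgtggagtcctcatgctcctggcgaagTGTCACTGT
chromosome 17: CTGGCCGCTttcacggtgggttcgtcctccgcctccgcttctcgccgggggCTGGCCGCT

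Such a probe spans the point where the circle closes. Wild type means of the 26 ran from −4.17 to 6.92, and all 26 passed the scanner software's mark for a signal well above background on all 6 arrays. Their knockout differences lay between −0.48 and 0.35. H1f2, Mob3a, Cdc42bpb, Tubb5 and the place on chromosome 17 held the 5 shortest members, each spanning 50 bases. The Mob3a circRNA read 1.79, 1.74 and 1.85 on the wild type arrays and 1.60, 1.57 and 1.61 on those of the knockout, so the groups did not overlap, with an unadjusted p of 0.053 and an adjusted p of 0.33 in limma.

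The hosts were broad. Of the 3484 members, 3281 (94.2%) lay in 1 coding gene, 107 in a non-coding gene, 18 in several genes and 78 in no gene of the reference. They came from 2378 hosts, of which 582 held 2 or more members. Malat1, a nuclear long non-coding RNA, held 29, Map1b, for a microtubule-associated protein, 21, Ttn, for the muscle protein titin, 17, Kif1a, for an axonal motor protein, 15, and Dync1h1, for the dynein heavy chain, 14. Members are not independent of each other: 950 (27.3%) had a probe that shared a run of 25 or more bases with another circRNA probe, and 77 (2.21%) shared one with a linear probe.

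Strand set the short circRNAs apart from longer ones. Among those with 1 coding host of known strand, 524 of 3260 (16.1%) lay on the strand opposite to the host, against 1.05% of circRNAs spanning 1 to 30 kb and 0.282% of those over 30 kb. These shares are properties of the array design. Of the 524, 9 lay in another gene on their own strand. Back-splicing joins exons of 1 transcript and keeps its strand.

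The detected share of short circRNAs was slightly above that of longer ones on every array. The share of members well above background was 92.8, 93.3 and 93.7% on the wild type arrays and 93.9, 92.9 and 92.7% on those of the knockout. Circles spanning 1 to 30 kb had 91.5, 92.4 and 92.5% on the wild type arrays and 93.2, 90.6 and 90.9% on those of the knockout. The members lay 1.36 percentage points higher on average and were higher on 6 of 6 arrays (exact sign-flip test, two-sided, p = 0.031, the smallest it can give, and 0.0625 after Benjamini-Hochberg over 4 such tests, which misses the threshold of 0.05). The same probes were read on all 6 arrays, so the sign-flip test covers the spread between arrays and not that between probes. Between genotypes the members' share differed by −0.105 points (exact permutation test, two-sided, p = 0.9, adjusted p = 0.9, smallest possible 0.1). Of all 3484, 3140 (90.1%) were well above background on all 6 arrays, where 66.5% of all probes were, and 149 (4.28%) were on none, where 21.7% of all probes were.

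Members opposite to their host had a lower detected share on every array than members on the host strand. Their share well above background was 87.6 to 89.3% over the 6 arrays, against 93.5 to 94.6%, a mean difference of −5.64 points with the same sign on 6 of 6 arrays (exact sign-flip test, p = 0.031, adjusted p = 0.0625, again short of the threshold). This test was added after the values were seen. It reads the same probes on all 6 arrays, so it covers the spread between arrays and not that between probes. The median signal of opposite-strand members was −2.11 to −1.93, against −0.97 to −0.89 on the host strand. The median signal also differed with span: it was 0.03 to 0.12 for spans under 100 bases and between −1.42 and −0.45 in all 5 classes of longer span. Base composition differed beside this, with a median probe GC content of 50% in the members and 45% in circRNAs spanning 1 to 30 kb. The part of GC content in these signals was not tested.

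**Figure D1:**
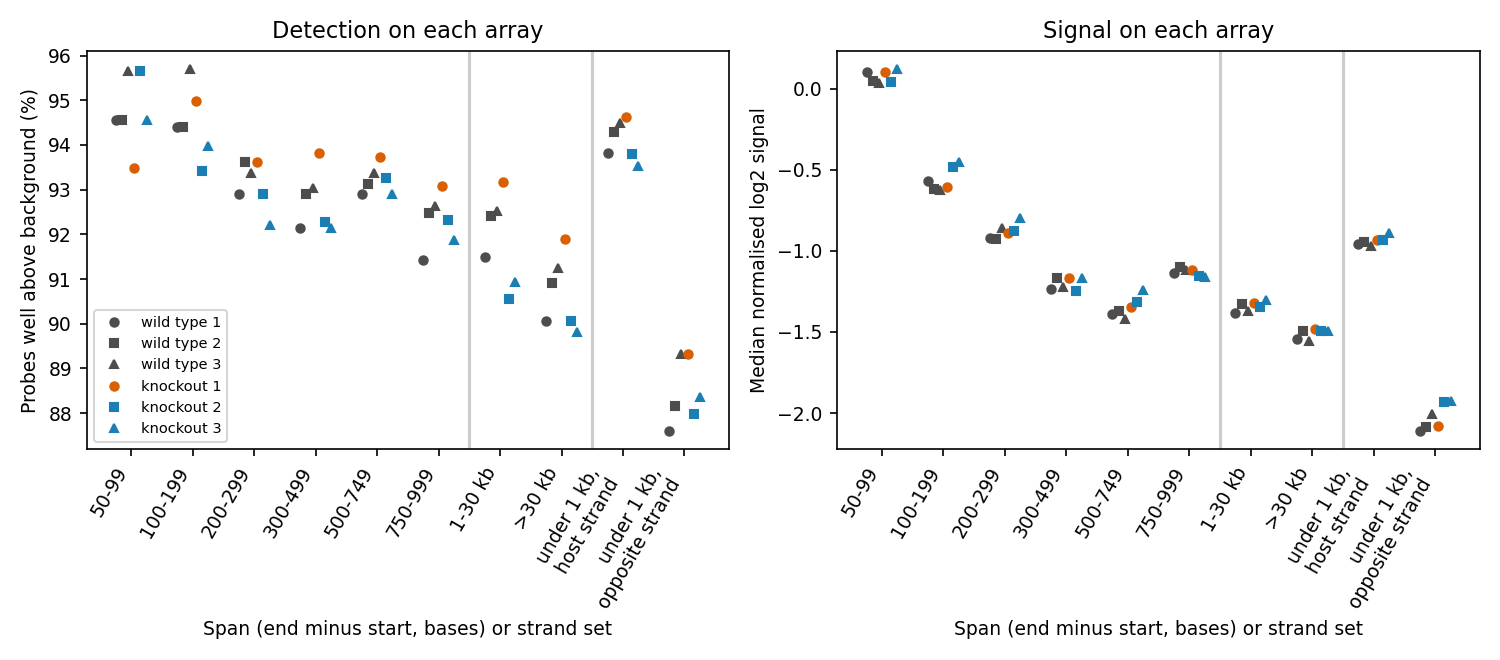
Share of probes well above background (left, percent) and median normalised log2 signal (right) on each of the 6 arrays, for short circRNAs by span, for longer circRNAs, and for short circRNAs by strand relative to the host. Opposite-strand members sit lowest in both panels, at 87.6 to 89.3% and −2.11 to −1.93.

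The circRNA inside Nfe2l2 itself was tested first because it checks the genotype labels. It spans 301 bases at chr2:75675899-75676200 on the minus strand, the strand of the gene, and its probe is shown because it carries the one call among the members.
Nfe2l2: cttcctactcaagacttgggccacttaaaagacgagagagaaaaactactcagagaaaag

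It read −1.68, −1.83 and −1.83 on the wild type arrays and −7.33, −7.10 and −6.73 on those of the knockout. All 3 wild type arrays were well above background and no knockout array was, so the knockout has only a bound. The circRNA fell at least 10.1-fold, from −1.78 ± 0.09 (SD, n = 3) to a measured mean of −7.05 ± 0.30 (SD, n = 3), with a fitted log2 change of −5.27 ± 0.16 (SE) and an adjusted p of 0.000717 in limma (0.00061 to 0.052 over the alternatives, the highest with replicate number as a block). The bound sets the wild type mean against, on each knockout array, whichever was brighter, this probe or the dimmest probe well above background. On slide 1 alone the change was −5.55, with an adjusted p of 0.021, and with normexp background correction (offset 50) it was −1.06, with an adjusted p of 0.0051.

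The coding transcript of Nfe2l2 fell as well. Of the 3 probes for its coding transcript, 2 were not well above background on any knockout array and were at least 81.5-fold and at least 65.6-fold lower, with adjusted p of 0.0091 and 4.78e-06 in limma. The third was above background on all 6 arrays and had a log2 change of −4.08 with an adjusted p of 0.00061, while the probe for its non-coding transcript had −0.35 with an adjusted p of 0.39. Whether the circRNA probe read the circle or the linear transcript was not tested. The other member hosted by an Nrf2 partner lies in Mafg, which encodes a small MAF protein that pairs with Nrf2. It read 4.08, 3.9 and 4.05 on the wild type arrays and 3.96, 3.87 and 4.05 on those of the knockout, so the groups overlapped.

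Genes that Nrf2 is known to activate hosted 7 members, in Fth1 (ferritin heavy chain), Sqstm1 (an autophagy receptor), Tkt (transketolase), Cbr1 (a carbonyl reductase) and Abcc4 (an efflux transporter). All 7 were tested, none had an unadjusted p under 0.05, and their differences lay between −0.05 and 0.27 with a median of 0.08. The Fth1 circRNA read 5.88, 6.0 and 6.0 on the wild type arrays and 5.99, 5.90 and 5.98 on those of the knockout. On linear probes, 13 of 51 target genes were lower at an unadjusted p under 0.05, against 8.94% of all probes, and none was higher, against 6.11%. Of the 51, 1, Aox1, an aldehyde oxidase gene, passed the adjusted threshold. This list was chosen with earlier results of these data known. Each gene was read by its brightest tested probe, so the counts do not test the list against all probes.

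Across the members, the Nfe2l2 circRNA was the only one of 3244 tested that passed the adjusted threshold of 0.05. Over all probes tested, 0.00944% did. At an unadjusted p under 0.05 in limma there were 527 members (16.2%), against 15.1% of all probes. Of these, 307 (9.46%) were higher in the knockout, against 6.11% of all probes, and 220 (6.78%) lower, against 8.94%. The longer circRNAs were similar, with 8.40% higher and 6.28% lower at 1 to 30 kb, and 9.29% and 5.48% over 30 kb. Groups did not overlap in 807 members (24.9%), against 21.6% of all probes, with 553 (17%) higher, against 11.1%, and 254 (7.83%) lower, against 10.4%. Here too longer circRNAs were similar, with 16.1% higher and 6.98% lower at 1 to 30 kb, and 17.5% and 5.89% over 30 kb. The median log2 difference of the members was 0.09, beside 0.03 over all tested probes and 0.08 for circRNAs spanning 1 to 30 kb. With slide as a block it was 0.03, beside 0.0037 over all tested probes. The per-array median of tested members minus that of circRNAs spanning 1 to 30 kb was 0.26 in wild type and 0.27 in the knockout, a difference of 0.01 (exact permutation test, two-sided, p = 0.7, adjusted p = 0.9, smallest possible 0.1). With slide as a block, 120 members (3.70%) had an unadjusted p under 0.05, against 5.69% of all probes. Of these 120, 63 were higher and 57 lower, where 2.44% of all probes were higher and 3.24% lower. The adjusted call there was 1 member, and 0.00661% of all probes. On slide 1 alone 3.45% of the members had an unadjusted p under 0.05, against 5.55% of all probes, with 55 higher (2.3% of all probes) and 57 lower (3.25%), and 1 was called, beside 0.00378% of all probes.

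Among members without overlap between groups, the 10 with the smallest p above wild type had adjusted p of 0.26 to 0.31. They lie in Utrn (utrophin, a relative of dystrophin), Daam2 (a formin, on the opposite strand), 2610307P16Rik, Scd1 (stearoyl-CoA desaturase, which makes monounsaturated fatty acids), Wars2 (a mitochondrial tRNA synthetase), Phc2 (a Polycomb protein), Fat4 (a large cadherin), Pola2 (a DNA polymerase alpha subunit), Lama5 (a laminin chain) and Ptchd4. Their log2 differences ran from 0.47 to 0.88, and from 0.18 to 0.39 with normexp background correction. The Utrn circRNA read −4.65, −4.77 and −4.56 on the wild type arrays and −4.07, −3.91 and −3.89 on those of the knockout, a difference of 0.70 ± 0.10 (SE). The Scd1 circRNA, at chr19:44396283-44396843 on the minus strand, read −1.15, −1.01 and −1.07 on the wild type arrays and −0.39, −0.59 and −0.60 on those of the knockout, a difference of 0.55 ± 0.10 (SE) with an unadjusted p of 0.0011 and an adjusted p of 0.31. Knockout 1, on the wild type slide, was its highest array, so the difference on slide 1 was 0.68. The 2 linear Scd1 probes differed by 0.30 and 0.09, each with knockout 1 highest. The Lama5 circRNA was well above background on all 3 knockout arrays and on no wild type array. Its knockout signal was at least 1.26-fold higher, with measured means of −5.55 and −4.72 and an adjusted p of 0.31.
Scd1: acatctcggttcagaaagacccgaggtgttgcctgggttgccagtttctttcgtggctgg

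The 10 with the smallest p below wild type all had an adjusted p of 0.31 and log2 differences of −1.04 to −0.42. With normexp these ran from −0.77 to −0.016, the smallest in Gm13986. They lie in S100a4 (a calcium-binding protein), Gm13986, Sec14l5, Dpysl3 (a neuronal protein of the growth cone), Fos (an immediate early transcription factor of active neurons), Grm7 (a glutamate receptor), Ccng1 (cyclin G1, on the opposite strand), Ttn, Abcb6 (a membrane transporter) and Myh6 (a cardiac myosin). In 9 of the 10, all but Fos, knockouts 2 and 3 were both below knockout 1. The Fos circRNA, at chr12:85476327-85476577 on the plus strand, read 1.00, 1.02 and 1.39 on the wild type arrays and 0.50, 0.41 and 0.58 on those of the knockout, a difference of −0.64 ± 0.13 (SE). The difference on slide 1 alone was −0.63. A second Fos member overlaps it in position (chr12:85475943-85476443) and read 0.53, 0.55 and 0.68 on the wild type arrays and 0.56, 0.40 and 0.40 on those of the knockout, so its groups overlapped. The 2 linear Fos probes differed by 0.11 and 0.36, with unadjusted p of 0.71 and 0.34 in limma.
Fos: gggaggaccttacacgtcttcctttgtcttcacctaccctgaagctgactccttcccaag

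**Figure D2:**
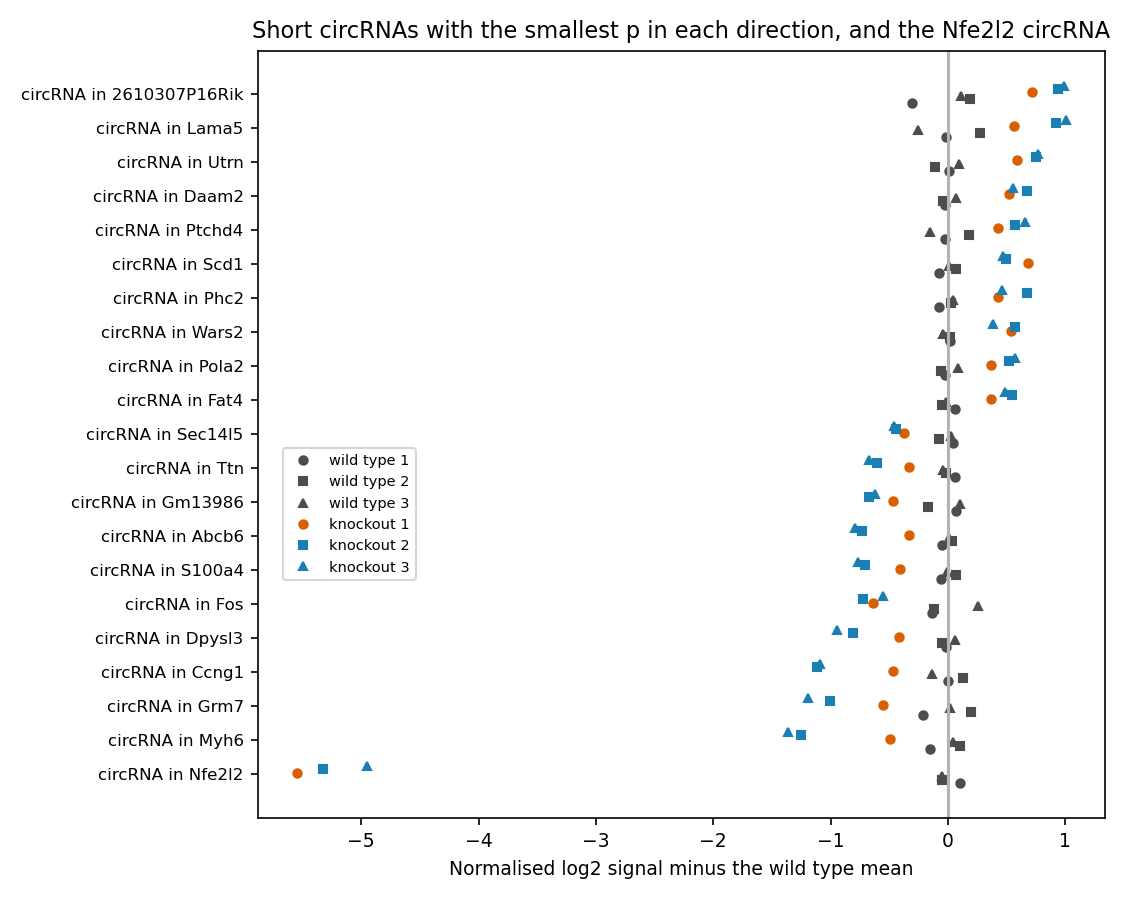
Normalised log2 signal of each array minus the wild type mean, for the Nfe2l2 circRNA and the 10 members with the smallest p in each direction among those whose groups do not overlap. The Nfe2l2 circRNA lies near −5 on all 3 knockout arrays, and the other 20 members lie much nearer to 0.

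Most of the large differences below wild type, other than that of the Nfe2l2 circRNA, were seen on slide 2 alone. The knockout mean was at least 2-fold below wild type in 54 tested members (1.66%), against 1.98% of all probes. Knockouts 2 and 3, on slide 2, averaged at least 2-fold below wild type in 114 of 3244 tested members (3.51%), against 4.01% of all tested probes. In knockout 1, on slide 1, 102 of these 114 lay within 0.5 of the wild type mean and 2 lay 2-fold below it, those in Nfe2l2 and Arsg, a sulfatase gene. Those were also the only tested members at least 2-fold below wild type in knockout 1, against 0.498% of all probes, while 7 were as far above it, against 0.687%. Knockouts 2 and 3 were that far above wild type in 12, against 0.745%, and 6 members were above by that much on both slides. The Trappc2 circRNA, in a gene for a vesicle transport protein, read −2.45, −2.21 and −2.71 in wild type, −2.55 in knockout 1, and −7.39 and −6.55 in knockouts 2 and 3. Without knockout 1, 505 members passed the adjusted threshold in limma, and 12.8% of all probes did. In that fit slide and genotype cannot be told apart.

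**Figure D3:**
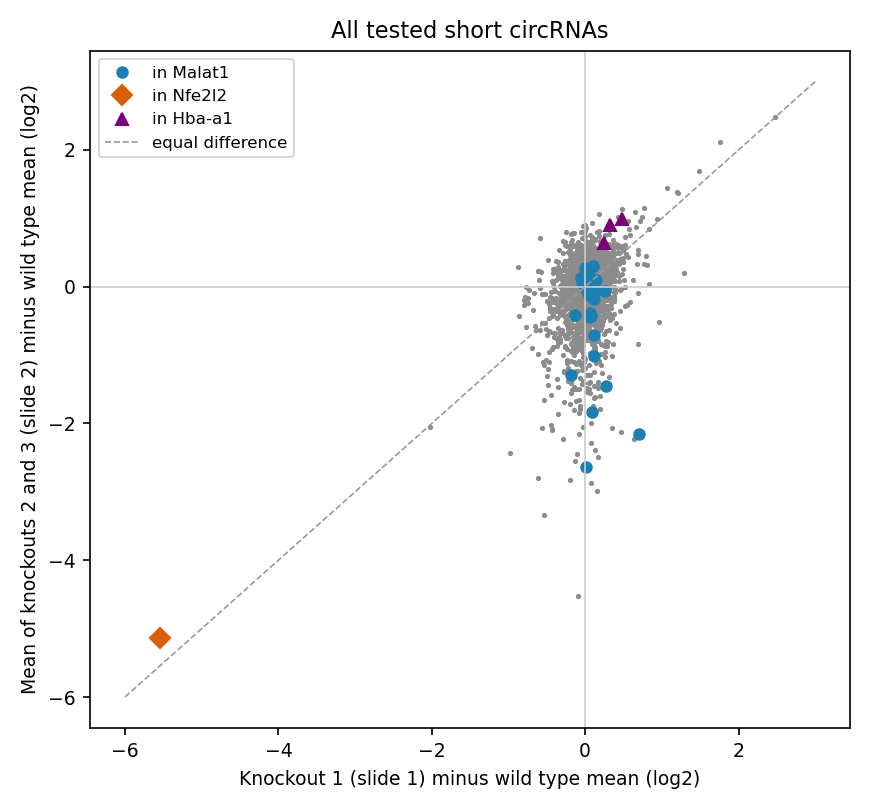
Difference from the wild type mean in knockout 1 on slide 1 (horizontal axis, log2) against that of knockouts 2 and 3 on slide 2 (vertical axis, log2) for the 3244 tested short circRNAs, each a point. The Nfe2l2 circRNA lies near the line of equal difference, while 102 of the 114 members at or below −1 on the vertical axis lie within 0.5 of 0 on the horizontal axis.

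These slide 2 differences went with the bases of the probe. The 114 members had a median adenine content of 35%, against 26.7% over all tested members. Knockouts 2 and 3 averaged at least 2-fold below wild type in 7 of 738 tested members (0.949%) with 20 to 25% adenine, in 21 of 347 (6.05%) with 35 to 40%, and in 39 of 174 (22.4%) with 40% or more. In knockout 1 the same was seen in 2 of those 174, the circRNAs in Nfe2l2 and Arsg. Circles spanning 1 to 30 kb ran likewise, from 1.16% at 20 to 25% adenine to 15.3% at 40% or more. Over all tested probes the shares were 2.95% at 20 to 25%, 5.57% at 35 to 40% and 10.2% at 40% or more. The bins were chosen after the values were seen, so this is a description with no test.

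**Figure D4:**
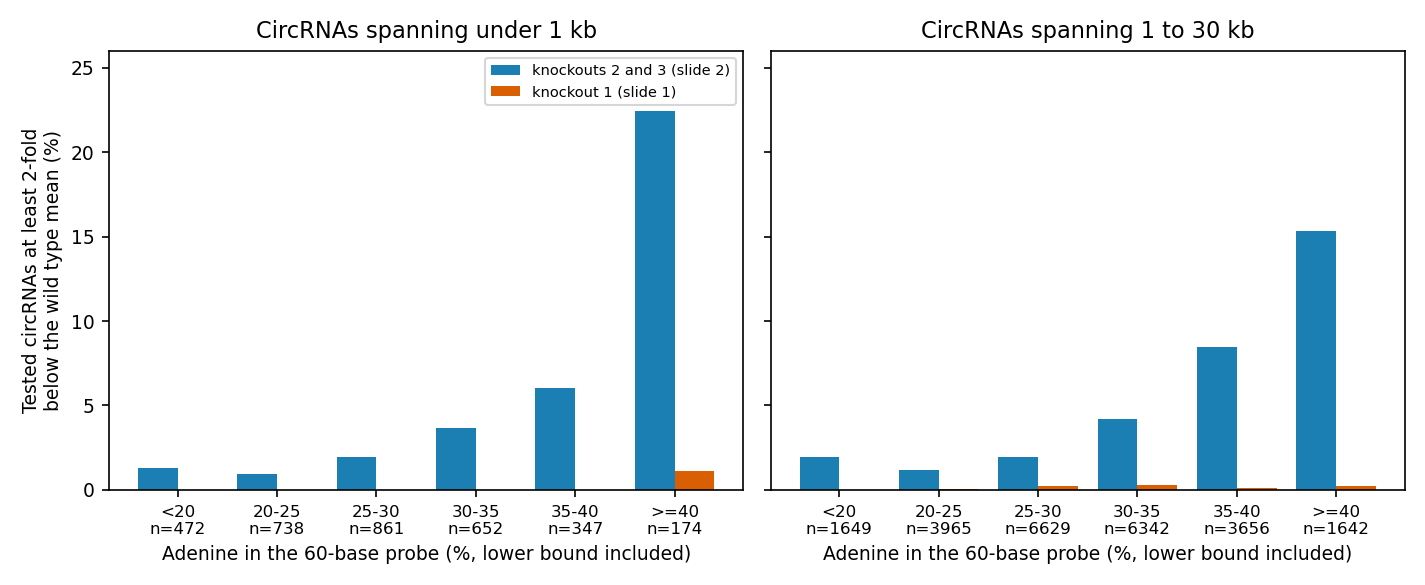
Share of tested circRNAs at least 2-fold below the wild type mean (percent, from 0) by adenine content of the probe, for spans under 1 kb (left) and of 1 to 30 kb (right), with knockouts 2 and 3 in blue and knockout 1 in orange. The blue bars reach 22.4% and 15.3% at 40% adenine or more, and the orange bars stay at 1.15% or less.

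In the other direction, 7 members differed by 2-fold or more above wild type, 0.216% of those tested against 0.541% of all probes. In 6 of the 7, wild type 1 alone lay more than 2-fold below all 5 other arrays. The Atp2b3 circRNA, in a gene for a neuronal calcium pump, read −7.20 in wild type 1, 0.25 and 0.19 in wild types 2 and 3, and 0.22, 0.19 and 0.28 in the knockout, so 5 arrays were alike. The one that was otherwise lies in Timeless, and it was above background on no wild type array. In the Arsg circRNA wild type 1 was also low, but it lay near the knockout arrays. This circRNA read −4.01 in wild type 1, −0.38 and −0.76 in wild types 2 and 3, and −3.74, −3.97 and −3.57 in the knockout. Its difference of −2.05 had an adjusted p of 0.34 with all arrays and became −3.19 with an adjusted p of 0.024 in limma without wild type 1. These members were named after their values were seen. Wild type 1 also had 186 spots with outlier flags, against 13 to 36 on the other arrays.

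Malat1 held more members than any other host, and on the gene's strand its values differed with slide and adenine. Of its 29 members, 21 lay on the gene's strand and 8 on the opposite one. Wild type means ran from −4.57 to 8.05 with a median of 5.51 on the gene's strand, and from 0.24 to 2.39 on the opposite strand. All 29 were tested, and 4 had an unadjusted p under 0.05, against 15.1% of all probes, none past the adjusted threshold. On the gene's strand, knockouts 2 and 3 averaged at least 0.5 below wild type in 7 members, by −2.64 to −0.71, where knockout 1 differed by −0.19 to 0.70. In the other 14 the same average lay between −0.43 and 0.28. Probes of the 7 held 36.7 to 56.7% adenine and those of the 14 held 16.7 to 35%, with no overlap. The 7 were picked by their values, so this too is a description. On the opposite strand, the members 4459 to 4873 and 4929 to 5265 bases from the 5′ end had probes with 40% adenine. There the average of knockouts 2 and 3 differed from wild type by 0.09 and −0.41. A set of 3 of the 7 shares a run of 28 bases, in capitals below, in circRNAs at chr19:5801232-5801822, chr19:5801525-5801799 and chr19:5801695-5801809, all on the minus strand.
Malat1, 591 bases: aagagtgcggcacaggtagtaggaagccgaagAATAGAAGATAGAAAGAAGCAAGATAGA
Malat1, 275 bases: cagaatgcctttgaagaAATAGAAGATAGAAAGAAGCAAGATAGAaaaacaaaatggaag
Malat1, 115 bases: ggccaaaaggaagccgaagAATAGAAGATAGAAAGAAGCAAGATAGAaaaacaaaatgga

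The 115-base circRNA read 2.69, 1.85 and 2.06 in wild type, 2.90 in knockout 1, and −0.17 and 0.26 in knockouts 2 and 3. The 591-base circRNA read 7.28, 7.22 and 7.23 in wild type, 7.37 in knockout 1, and 6.53 and 6.54 in knockouts 2 and 3. In both, knockout 1 was the highest array and slide 2 the lowest. The member nearest the 5′ end of the gene, at chr19:5802209-5802362, was among the 10 brightest of all and read 8.11, 7.98 and 8.04 on the wild type arrays and 8.18, 8.03 and 7.91 on those of the knockout, so its groups overlapped. Of 4 linear Malat1 probes, 1 also read lower on slide 2, with 6.20, 6.10 and 6.05 in wild type, 6.25 in knockout 1, and 5.21 in both knockouts 2 and 3, and the others differed by −0.14 to 0.07.

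**Figure D5:**
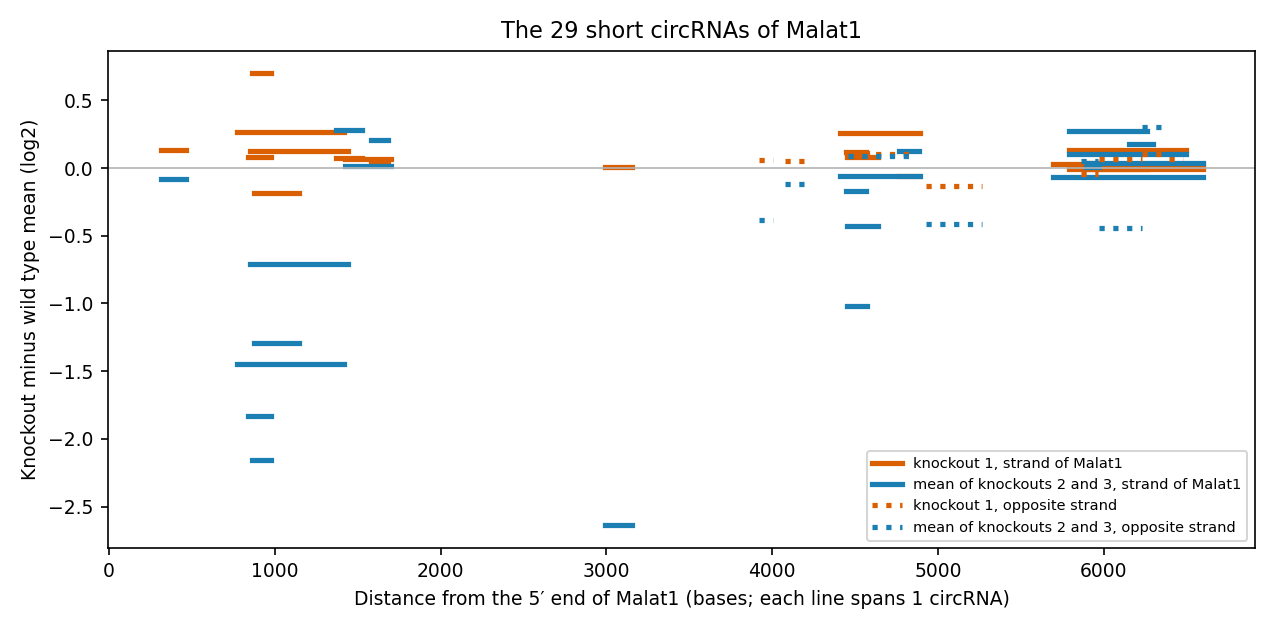
Difference from the wild type mean (log2) of knockout 1 in orange and of the mean of knockouts 2 and 3 in blue for the 29 short circRNAs of Malat1, each drawn as a line over its distance from the 5′ end of the gene in bases (dotted for the opposite strand). Blue lines reach −2.64, while orange lines on the gene's strand stay between −0.19 and 0.70.

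The locus of Cdr1 gave 6 of the 10 brightest members. Its opposite strand is known for Cdr1as, a circRNA abundant in brain that holds many sites for the microRNA miR-7. The 7 members there span 105 to 145 bases between positions 61183273 and 61183843 of chromosome X, on the plus strand, opposite to Cdr1. The RefSeq sequence of mmu-miR-7a-5p is shown first, with its seed (bases 2 to 8) in capitals, and then 4 of the probes with each match to that seed, GTCTTCC, in capitals. They belong to chrX:61183701-61183843, chrX:61183680-61183825, chrX:61183680-61183789 and chrX:61183273-61183379.
mmu-miR-7a-5p: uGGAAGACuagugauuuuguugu
Cdr1, 143 bases: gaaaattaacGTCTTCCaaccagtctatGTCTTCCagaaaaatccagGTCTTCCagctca
Cdr1, 146 bases: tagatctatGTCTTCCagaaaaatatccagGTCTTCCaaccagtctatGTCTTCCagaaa
Cdr1, 110 bases: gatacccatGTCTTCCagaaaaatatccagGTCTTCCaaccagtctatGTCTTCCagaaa
Cdr1, 107 bases: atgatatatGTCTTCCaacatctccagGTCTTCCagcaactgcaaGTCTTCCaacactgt

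Each of the 7 probes held 3 matches. Of all members, 18 (0.517%) held 1 or more, and of all probes of this length on the array 0.485% did. On the other strand (GGAAGAC), 0.718% of the members and 0.716% of all probes did. The probes of the 146-base and 110-base circRNAs share 53 of their 60 bases, so their signals are not independent, and any linear or larger circular RNA of that strand could bind them too. Wild type means of the 7 ran from 8.02 to 8.37, and their knockout differences from −0.25 to −0.04, all 7 below 0, though 1 lay above it with median scaling and without knockout 1. The 143-base circRNA read 8.32, 8.44 and 8.33 on the wild type arrays and 8.19, 8.03 and 8.11 on those of the knockout, a difference of −0.25 ± 0.09 (SE) with an unadjusted p of 0.028 and an adjusted p of 0.31. Groups did not overlap in 4 of the 7, all lower, as in 10.4% of all probes. The 7 were taken as a group after their values were seen. The other brightest members lie in Cox6a1 (a subunit of the respiratory chain, with wild type signals of 8.44 to 8.47), Hba-a1, Malat1 and the block on chromosome 17 described next. The Cox6a1 probe shares 26 bases with a linear probe.

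A block of 39 members lay close together on chromosome 17, from 39844415 to 39848682, beside and within Rn18s-rs5, a pseudogene of the 18S ribosomal RNA. Ribosomal RNA genes exist in many near-identical copies, so these signals cannot be assigned to this place. All 39 were well above background on all 6 arrays, with wild type means of 0.70 to 8.43. In 34 the knockout mean was higher and in 5 lower, with a median difference of 0.25, and 34 to 37 were higher under the other scalings. Of all tested probes 54.9% were higher. Of the 39, 14 had an unadjusted p under 0.05, all higher, where 6.11% of all probes did, with adjusted p of 0.31 or more in limma. With slide as a block 1 of the 39 did, against 2.44% of all probes, and on slide 1 alone the median difference was 0.16. The block was chosen after its values were seen. Of the 39 probes, 23 share 25 or more bases with another circRNA probe, so they are not 39 separate measurements. The brightest, at chr17:39845855-39845953, read 8.43, 8.43 and 8.42 on the wild type arrays and 8.43, 8.43 and 8.41 on those of the knockout.

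Hba-a1, for a haemoglobin alpha chain of red blood cells, held 3 members, which were taken as a group after their values were seen. All 3 were above wild type without overlap, as 11.1% of all probes were, and above it under each scaling tried. The member at chr11:32283702-32284386 read 3.66, 3.96 and 3.59 on the wild type arrays and 4.21, 4.72 and 4.73 on those of the knockout, a difference of 0.82 ± 0.18 (SE) with an adjusted p of 0.31. The others differed by 0.70 and 0.50. With slide as a block, or on slide 1 alone, the 3 differences were 0.48, 0.32 and 0.25, and the members at an unadjusted p under 0.05 went from 3 to 1 and 0. Of all probes, 6.11%, 2.44% and 2.3% were higher at that level in the 3 fits. In each of the 3 members, wild type 2 was the highest wild type array and knockout 1 the lowest knockout array. The linear Hba-a1 probes differed by 0.44 and 0.74, and the red blood cell list had a mean signal of 5.99 to 6.48 in wild type, 6.53 in knockout 1 and up to 6.75 on slide 2. The part of blood in the samples was not tested.

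Hosts known for circRNAs in brain held 36 members, of which 32 were tested. At an unadjusted p under 0.05, 4 were higher and 2 lower, against 6.11% and 8.94% of all probes, none passed the adjusted threshold, and the median difference was 0.06. Of the 5 brightest, 3 are described here, in Anks1b, Ttc3 and Dlgap1. The Anks1b circRNA, on the strand opposite to this gene for a postsynaptic protein, read 6.11, 5.92 and 6.06 on the wild type arrays and 5.84, 5.46 and 5.27 on those of the knockout, a difference of −0.51 ± 0.16 (SE). The Ttc3 circRNA read 2.66, 2.70 and 2.59 in wild type, 2.62 in knockout 1, and 1.64 and 1.97 in knockouts 2 and 3. The Dlgap1 circRNA, in a gene of the postsynaptic scaffold, read 1.49, 1.58 and 1.65 on the wild type arrays and 1.61, 1.74 and 1.76 on those of the knockout, so its groups overlapped.

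Other cell types were represented through their hosts. The 3 Mobp members, in a gene of the myelin sheath, were above wild type without overlap, as 11.1% of all probes were, by 0.47, 0.29 and 0.21. With slide as a block the differences were 0.22, 0.14 and 0.15, and those at an unadjusted p under 0.05 went from 2 to 0. Of all probes, 6.11% and 2.44% were higher at that level in these 2 fits. The probes of the 3 Mobp members share at least 39 bases with another circRNA probe. These 3 were chosen after their values were seen. The 6 members hosted by oligodendrocyte markers, these 3 among them, differed by 0.18 to 0.47, with a median of 0.23. At an unadjusted p under 0.05, 2 of the 6 were higher, against 6.11% of all probes. The 9 linear oligodendrocyte genes had a median difference of 0.01, with −0.16 for Mobp. The 5 members hosted by astrocyte markers differed by −0.14 to 0.52, with a median of 0.13. At an unadjusted p under 0.05, 1 of the 5 was higher, against 6.11% of all probes. Of these, the Aldoc circRNA, in an enzyme gene of astrocytes, read 1.80, 1.91 and 1.78 on the wild type arrays and 1.94, 2.27 and 2.43 on those of the knockout. The 1 member hosted by a microglia marker differed by −0.08. None of 6 members hosted by neuron markers had an unadjusted p under 0.05.

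Factors that form or clear circRNAs were compared on linear probes. Of 41 genes, all tested, none passed the adjusted threshold, 1 had an unadjusted p under 0.05 above wild type and 2 below, against 6.11% and 8.94% of all probes, and the median difference was 0.00. Rida, for an adaptor in the cleavage of m6A-marked RNA, read 3.48, 3.46 and 3.43 on the wild type arrays and 2.89, 3.07 and 2.78 on those of the knockout, a difference of −0.55 ± 0.10 (SE) with an adjusted p of 0.31. Khsrp, for a splicing and decay factor, read 4.68, 4.58 and 4.69 in wild type, 4.50 in knockout 1, and 3.80 in both knockouts 2 and 3. Mbnl3 differed by 0.40 and was above background on 1 wild type array. As hosts, these factors held 21 members, of which 20 were tested and 2, in Adar and Mbnl2, were lower at an unadjusted p under 0.05, by −0.63 and −0.34. In both, knockouts 2 and 3 were the lowest arrays.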

How the data were processed

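The authors deposited scanner files that give the intensity of each spot on a linear scale. Per the file headers these came from Agilent Feature Extraction 12.0.3.1, whereas 10.7, with limma, is the version in the submitters' processing notes. A table the authors processed holds log2 values that follow log2 of the scanner signal (r from 0.99986 to 0.99999). Its exact steps are unknown, and it was used as an alternative. From the intensities, log2 of the processed signal minus log2 of each array's 75th percentile was computed. The 4974 control spots were left out and outlier spots set missing. Probes well above background on all 3 arrays of at least 1 group were tested (105922) with limma 3.58.1 in R 4.3.3 (lmFit, eBayes, knockout minus wild type), with Benjamini-Hochberg adjustment over all of them and a threshold of 0.05. Array number limits the precision. Hosts came from a RefSeq gene table of GRCm38.p6. Shares and medians were tested over samples by exact tests.

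The members and gene lists were chosen with earlier results of these data known, as were the named members' rules: the Nfe2l2 circRNA, members past the threshold, the 10 smallest p in each direction without overlap, the 10 brightest, members of Nrf2 target and Nrf2 partner hosts (as groups, and singly at an unadjusted p under 0.05), brain circRNA hosts as a group with the 5 brightest (2 of them not reported here), the 3 shortest (5 tie and all are given), 3 on each side of the 1000-base boundary, and the host with most members. Linear genes for circRNA formation and turnover were named at an unadjusted p under 0.05. Mafg, Fth1, Mobp, Aldoc, Adar, Mbnl2, Hba-a1, Trappc2, Atp2b3, Timeless, Arsg, the Cdr1 group and the chromosome 17 block fall wholly or partly outside this rule and were chosen after their values were seen. The test of strand and the adenine bins were added after the values were seen. The fit was tested on simulated data. Alternatives were normexp, quantile and median scaling, the authors' table, other filters, slide and replicate blocks, other span limits, and leaving out each sample.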

Additional observations from a re-analysis of the deposited data

How the results depend on the processing

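The call of the Nfe2l2 circRNA held in every fit that could include it except 1: with replicate number as a block the change was −5.27 with an adjusted p of 0.052, which left 0 members called by limma. Same-numbered samples did not deviate together from their group means (correlations −0.013, −0.050 and 0.038). In the knockout these deviations include the difference between slides, so they cannot decide whether the numbers pair the samples. Requiring all 6 arrays above background also left 0 members, since this circRNA is then not tested. Leaving out each sample gave 1 to 505 called members and −5.44 to −5.13 for the Nfe2l2 circRNA. The percentage of members at an unadjusted p under 0.05 was 3.70 with a slide block, 3.45 on slide 1 alone, and 5.55 to 40.4 without single samples, where 40.4 and 505 are without knockout 1. The rule for signal over background limits dim probes.

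The genotype difference of members minus circRNAs of 1 to 30 kb became −2.65e-05 with the filter on all 6 arrays and −0.0023 with spans under 2000 bases, and lay between −0.0030 and 0.019 without single samples. The genotype difference in share above background lay between −0.45 and 0.12 points without single samples, and the difference from circRNAs of 1 to 30 kb between 1.16 and 1.5 points, with p = 0.0625 in each, the smallest an exact test over 5 samples can give. The latter was 0.683 points with the scanner's other mark for a significant positive signal, and 1.66 and 1.51 with spans under 500 and 2000 bases.

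Of the named members, none of the 10 with the smallest p in either direction turned under any alternative, although normexp moved several by over 1.5 times (Gm13986 from −0.59 to −0.016, Sec14l5 from −0.42 to −0.16, Utrn from 0.70 to 0.20, Lama5 from 0.83 to 0.20), while 19 of these 20, all but Fos, and the brightest Hba-a1 circRNA passed the threshold without knockout 1. The 3 that turned lie near 0. The brightest chromosome 17 circRNA became 0.011 with normexp, 0.015 with quantile and 0.046 with median scaling, 0.0014 with a slide block or on slide 1 alone, and lay between −0.0096 and 0.0022 without single samples (0.0022 without knockout 3). The Cdr1 circRNA at chrX:61183273-61183398 became 0.016 with median scaling and lay between −0.090 and 0.038 without single samples (0.038 without knockout 1). The bright Malat1 circRNA became 0.041 with median scaling, 0.0054 in the authors' table, 0.13 with a slide block or on slide 1 alone, and lay between −0.080 and 0.055 without single samples (0.023 without wild type 1, 0.055 without knockout 3).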
